A study of Mus musculus with 4 samples.

Results

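The peaks described here are strong HCF1 binding sites of mouse macrophages at which no BAP1-FLAG or OGT peak was called. They were chosen by the measured peak lists: an HCF1 peak was taken if it lay on chromosomes 1 to 19, had a deposited score of 100 or more, shared no base with any BAP1-FLAG or OGT peak, and lay more than 1 kb, edge to edge, from every HCF1 peak that did overlap such a peak. The rule left 2999 of the 31421 HCF1 peaks, out of 59420 peaks in the 3 lists of the series. Of the 30912 autosomal HCF1 peaks, 16100 scored 100 or more. Of these, 12412 overlapped a BAP1-FLAG or OGT peak (5556 both, 5590 BAP1-FLAG only and 1266 OGT only), and 689 more had no overlap but lay within 1 kb of an HCF1 peak that had one. The isolated peaks were thus 9.70% of autosomal HCF1 peaks and 18.6% of those of score 100 or more. In what follows a BAP1-FLAG or OGT peak is called a partner peak, and an HCF1 peak that overlaps one is called partnered.

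Chromatin immunoprecipitation and sequencing had been done on bone marrow derived macrophages, primary cells grown from C57BL/6 mouse marrow in L929 conditioned medium and given no further treatment. Anti-HCF1 and anti-OGT1 precipitates and an input came from BAP1 WT mice, and the anti-FLAG precipitate came from BAP1-3X Flag Tagged KI mice, so BAP1 and HCF1 were mapped in cells of different animals. There was 1 library per target and no replicate, so no test between conditions was possible, and the intervals printed below are 95% intervals for counting error that treat peaks as independent. How deeply the libraries were sequenced is unknown, and a site without a BAP1-FLAG or OGT peak may still bind that protein below the level that was called. The labels name the source as bone marrow progenitors and the cell type as macrophages, and peak lists hold no expression against which either could be checked. The name under which the BAP1-FLAG list was deposited refers to wild type cells, while its label gives the knock-in. The labels used here state no age or sex of the mice.

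HCF1 is a large nuclear protein that does not recognise DNA by itself. It is brought to chromatin by sequence-specific transcription factors and there connects them to enzymes that modify histones. OGT attaches single O-GlcNAc sugars to nuclear and cytoplasmic proteins and also cleaves the HCF1 precursor into its mature subunits. BAP1 is a deubiquitinase that removes ubiquitin from histone H2A, and it carries a short motif through which it binds HCF1. The sites described here are HCF1 peaks at which neither enzyme was called.

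Most isolated peaks had scores close to the lower limit, and a small number were among the strongest of the whole list. The median score was 144, with quartiles at 117 and 205 and a highest value of 3100. There were 795 isolated peaks at 200 or more, 338 at 300 or more, 118 at 500 or more and 34 at 1000 or more. The 118 were 3.93% of isolated peaks, whereas 21.4% of all autosomal HCF1 peaks of score 100 or more reached 500. Partnered peaks of score 100 or more had a median of 283. The share of HCF1 peaks that were isolated was 35.9% at scores of 100 to 150, 16.1% at 200 to 300, 3.55% at 500 to 1000 and 3.14% at 1000 or more. Since score and overlap both entered the rule, these shares describe the choice and were not tested.

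The score limit cut through a continuous distribution. The isolated peaks just inside it scored 100.01 (chr16:17222174-17222625), 100.05 (chr7:152116140-152116673) and 100.06 (chr12:36762956-36763802). Those that missed it by score alone had 99.99 (chr5:76445503-76446097), 99.96 (chr11:68322545-68322930) and 99.91 (chr10:67840825-67841404). The distance limit was equally close on both sides. Just inside it, peaks lay 1007 bp (chr1:89753227-89753899 and chr2:9798289-9799410) and 1008 bp (chr11:100619305-100619982) from a partnered peak, with scores of 119.45, 254.26 and 106.71. Just outside it, peaks on chromosome 19 from 11600281 to 11601092, on chromosome 2 from 61421742 to 61422565 and on chromosome 2 from 166553545 to 166554133 lay at exactly 1000 bp.

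The strongest isolated sites were broad peaks far from any partner peak. Of the 15 with the highest scores, which lay on 9 chromosomes and scored 1740.96 or more, the narrowest was 3249 bp wide. Their distances to the nearest partner peak ran from 6.50 to 446 kb, with a median of 36.1 kb, and 12 of the 15 were over 10 kb away. BAP1-FLAG was the nearer of the 2 partners for 12 of them. Another HCF1 peak lay within 1 kb of 12 of the 15, and another isolated strong peak lay within 10 kb of 12. The first 3 shared a score of 3100.00, which 49 autosomal HCF1 peaks reached or passed, and are given here in order of width.

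The first of them, chr15:35222934-35232839, scored 3100.00 and was also the widest at 9906 bp. It stood by itself: the nearest other HCF1 peak was 23.4 kb away, the nearest BAP1-FLAG peak 67.8 kb and the nearest OGT peak 870 kb. The second, chr2:73108097-73113807, had the same score, a width of 5711 bp and partner peaks at 36.1 kb (BAP1-FLAG) and 36.6 kb (OGT). A weaker HCF1 peak adjoined it at 13 bp. The third, chr6:49165570-49170136, was 4567 bp wide, lay 42.9 kb from BAP1-FLAG and 43.5 kb from OGT, and had another isolated strong peak 74 bp away.

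The sites that followed were of the same kind. The peak at chr19:24972546-24976618 scored 2841.47 over 4073 bp and lay 59.0 kb from BAP1-FLAG and 59.2 kb from OGT. A peak at chr16:91222279-91228663 scored 2767.53 over 6385 bp, with BAP1-FLAG at 85.7 kb and OGT at 124 kb. The site farthest from its nearest partner among these 15 was chr3:66780696-66787515, which scored 2316.31 over 6820 bp and lay 446 kb from BAP1-FLAG and 574 kb from OGT. Not all were remote. The peak at chr11:84334553-84340664, with a score of 2363.37 over 6112 bp, had BAP1-FLAG at 6.73 kb but OGT at 91.5 kb. Similarly, the peak at chr12:74144630-74148060 scored 1882.03 and had BAP1-FLAG at 6.50 kb, OGT at 199 kb and a partnered HCF1 peak at 2.20 kb. In contrast, the peak at chr19:45305851-45310359 (score 2020.56) was nearer to OGT, at 54.4 kb, than to BAP1-FLAG, at 127 kb. The same order held at chr2:38204581-38208667 (score 2015.37), with OGT at 57.0 kb and BAP1-FLAG at 64.5 kb. At chr9:55390353-55393601 (score 1740.96) a second isolated peak lay 12 bp away. The remaining 4 of the 15 lay in the large groups on chromosomes 6 and 2 that are described further on.

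Isolated peaks were about as wide as partnered peaks of like score. Their median width was 897 bp (interval 876 to 916 bp) and ranged from 207 to 9906 bp. Partnered peaks of score 100 or more had a median of 1266 bp, but they also scored higher. Within score bands the medians lay close together. They were 740 bp (725 to 755 bp) for isolated and 778 bp (766 to 791 bp) for partnered peaks at scores of 100 to 150, and 1119 bp (1088 to 1153 bp) against 1146 bp (1123 to 1169 bp) at 200 to 300. At 500 to 1000 they were 1911 bp (1764 to 2092 bp) against 1977 bp (1938 to 2016 bp). Only at 1000 or more were the isolated peaks wider with intervals that did not overlap, at 3762 bp (3249 to 4567 bp) for 34 peaks against 3014 bp (2917 to 3113 bp) for 1048. In the lowest band they were narrower by a similar criterion. Wide peaks have more room to meet a partner peak, and the rule removed those that did, so the widths are not independent of the choice. Width rose with score in the isolated set (Spearman rho 0.58 over 2999 peaks) and in the partnered set (rho 0.77 over 12412), as a description across peaks of 1 library. Of the isolated peaks, 156 (5.20%) were wider than 2 kb, beside 17.1% of all autosomal HCF1 peaks of score 100 or more. Wider than 5 kb were 10 isolated peaks (0.333%), beside 191 partnered peaks of score 100 or more (1.54%). The widest after those named above was chr14:103453515-103459604, at 6090 bp with a score of only 732.31, and it had OGT at 4.59 kb and BAP1-FLAG at 9.04 kb.

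**Figure D1:**
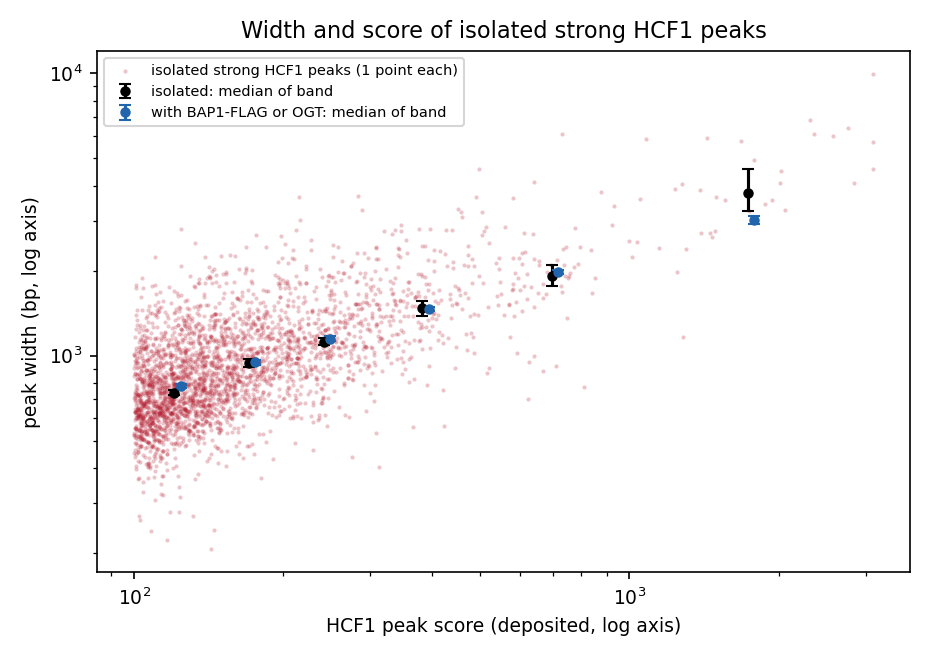
Width (vertical axis, bp) against deposited score (horizontal axis) of the 2999 isolated strong HCF1 peaks, both on log axes; each red point is 1 peak. Circles with bars are medians and 95% intervals for the 6 score bands, drawn at the middle of each band on the log axis, for isolated peaks (black) and partnered peaks (blue). The 2 sets of medians run close together up to a score of 1000, and above it the isolated median is 3762 bp against 3014 bp.

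Most isolated peaks had a partner peak within 50 kb. The rule bars shared bases with a partner peak, so the scarcity of partner peaks at their edge describes the choice. The median distance to the nearest partner peak was 13.2 kb (12.2 to 14.5 kb), with quartiles at 3.89 and 42.3 kb. The nearest partnered HCF1 peak was at a median of 17.5 kb. By protein, the median was 19.3 kb (17.9 to 20.8 kb) to BAP1-FLAG and 29.0 kb (26.2 to 31.9 kb) to OGT. BAP1-FLAG was the nearer partner of 2018 isolated peaks, 67.3% (65.6 to 69.0%), where the BAP1-FLAG list supplied 62.9% of the autosomal partner peaks. The share was higher, at 70.7% (69.8 to 71.7%), for 8804 weaker peaks that scored under 100 and were otherwise chosen the same way. For the isolated strong peaks, the nearest BAP1-FLAG peak was itself on an HCF1 peak in 78.4% of cases (76.9 to 79.9%), against 74.8% (74.1 to 75.4%) of all autosomal BAP1-FLAG peaks. The nearest OGT peak was on one in 80.1% (78.6 to 81.5%), against 82.2% (81.4 to 82.9%) of all OGT peaks. For the weaker peaks the shares were 77.7% (76.9 to 78.6%) and 78.9% (78.0 to 79.7%), with intervals that overlap those of the isolated strong peaks. A BAP1-FLAG peak can be the nearest of several isolated peaks, so these cases are not independent.

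A partner peak lay over 10 kb away for 1677 isolated peaks, 55.9% (54.1 to 57.7%). Of all autosomal HCF1 peaks 20.3% were this far from a partner, but peaks with a partner are at distance 0 and the rule removed them, so nothing is read from that gap. The set of 8804 weaker peaks that scored under 100 and were otherwise chosen the same way gives a closer comparison. Of these, 52.3% (51.2 to 53.3%) lay over 10 kb away, with a median distance of 11.1 kb (10.6 to 11.6 kb). Both values were somewhat lower than in the isolated strong set, with intervals apart. Beyond 50 kb the shares were 21.6% (20.1 to 23.1%) of isolated strong peaks and 18.2% (17.4 to 19.0%) of weaker ones, again with intervals apart. Beyond 100 kb they were 11.0% (9.87 to 12.1%) and 9.59% (8.98 to 10.2%), with intervals that overlap. Within the isolated strong set the distance was larger at higher score, with a median of 11.6 kb (10.4 to 13.1 kb) at 100 to 150, 22.0 kb (16.4 to 31.3 kb) at 300 to 500 and 40.4 kb (22.1 to 67.8 kb) at 1000 or more. Across all 2999 peaks the rank correlation of score and distance was nonetheless weak (rho 0.10). The median distance followed the definition of isolation: it was 25.3 kb when partner peaks under 100 were ignored, which left 5854 isolated peaks, 7.87 kb without the 1 kb limit and 0.246 kb when overlap meant centres within 250 bp.

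**Figure D2:**
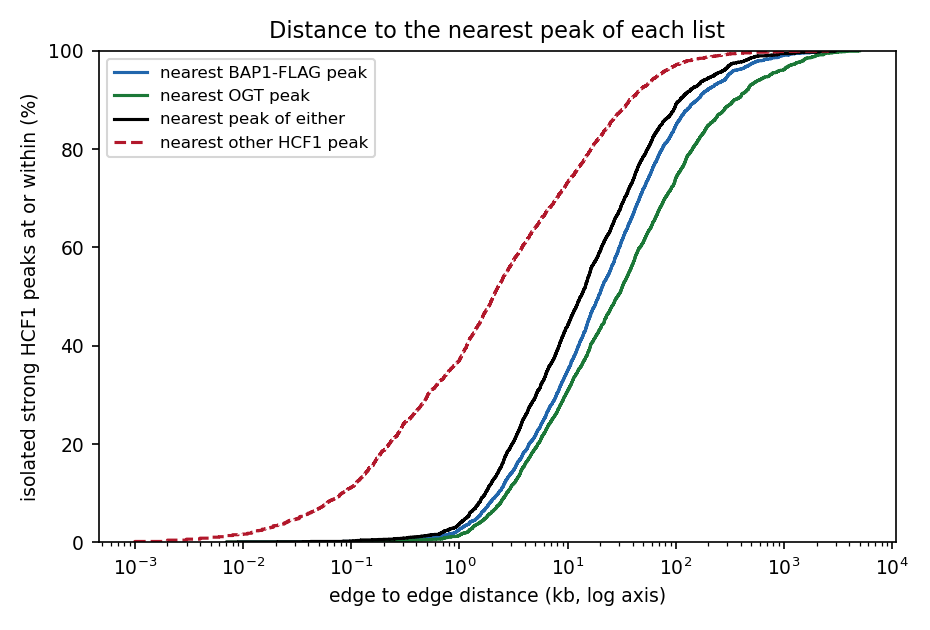
Cumulative share of the 2999 isolated strong HCF1 peaks (vertical axis, percent) that have a peak of the named list at or within the edge to edge distance on the horizontal axis (kb, log axis). The solid curves for BAP1-FLAG, OGT and either reach 50% at 19.3, 29.0 and 13.2 kb, and the dashed curve for the nearest other HCF1 peak at 2.05 kb; distances of 0 are drawn at 1 bp.

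Some isolated peaks only just met the rule, and a few lay in regions with no partner peak for megabases. A partner peak within 1 kb was found for 111 of them, 3.70% (3.05 to 4.44%): BAP1-FLAG for 77, OGT for 42 and both for 8. The nearest partner was over 1 kb away for 96.3% (95.6 to 96.9%) of isolated strong peaks. For the weaker isolated peaks this share was 94.5% (94 to 95%). The rule keeps partnered HCF1 peaks over 1 kb away and so favours nearby partner peaks that lie on no HCF1 peak, as did 41 of the 77 BAP1-FLAG peaks and 35 of the 42 OGT peaks. Those 41 had a median BAP1-FLAG score of 62.5, beside 71.2 for all 4383 autosomal BAP1-FLAG peaks on no HCF1 peak. The 35 had a median OGT score of 61.8, beside 62.1 for 1823 such OGT peaks. The closest was chr19:17409049-17410069, with a score of 185.71 and OGT at 7 bp, followed by chr19:4227126-4227931 (114.86) with BAP1-FLAG at 9 bp and chr17:45873135-45874035 (131.02) with BAP1-FLAG at 21 bp. The next were chr11:119385092-119385509 (107.19), 36 bp from BAP1-FLAG, and chr1:153805397-153805921 (100.13), 42 bp from OGT. At the other extreme 18 isolated peaks had no partner within 1000 kb. The most remote were 3 neighbours on chromosome 14, at chr14:84843098-84843908, chr14:84845144-84845811 and chr14:84846158-84846917, with scores of 109.10, 161.66 and 123.52. All 3 lay between 2968 and 2971 kb from BAP1-FLAG and between 4855 and 4858 kb from OGT. A peak at chr16:81454472-81455247 (125.65) was remote from HCF1 as well, with the nearest other HCF1 peak 2576 kb away, and so was chr4:28871457-28871879 (112.74), at 2597 kb.

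As deposited, many isolated peaks had another HCF1 peak close by. Their nearest other HCF1 peak of any score lay at a median of 2.05 kb (1.89 to 2.25 kb), against 5.15 kb (4.85 to 5.44 kb) for the weaker isolated peaks and 2.09 kb (1.94 to 2.28 kb) for partnered ones of score 100 or more. Another HCF1 peak lay within 1 kb of 1110 isolated peaks, 37.0% (35.3 to 38.8%), a share near the 40.0% of all autosomal HCF1 peaks and well above the 18.7% (17.9 to 19.5%) of weaker isolated peaks. Within 100 bp there was one for 336 isolated peaks, 11.2% (10.1 to 12.4%). The share was 17.8% (17.1 to 18.5%) for partnered peaks of score 100 or more and 4.38% (3.97 to 4.83%) for weaker isolated ones. Gaps this short can arise where a peak caller divides a broad enriched stretch into several peaks. With HCF1 peaks joined over gaps of 1 kb or less, the median distance from an isolated region to the nearest other HCF1 region was 6.02 kb. It was 4.11 kb with a minimum of 5 kb to partnered peaks, 0.960 kb for isolated peaks of score 200 or more, 4.26 kb with the score limit at 50 and 1.08 kb without the 1 kb limit. Another HCF1 peak lay within 10 kb of 73.2% of isolated strong peaks, 70.7% of partnered ones of score 100 or more and 63.2% of weaker isolated ones. No HCF1 peak at all lay within 10 kb of 803 isolated strong peaks (26.8%). These 803 had a median score of 139 and a median partner distance of 29.7 kb (26.6 to 32.7 kb). Of autosomal partner peaks, 74.8% (BAP1-FLAG) and 82.2% (OGT) overlap an HCF1 peak. Asking for no HCF1 peak within 10 kb thus also removes most nearby partner peaks, and the longer distance follows at least in part from that.

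Most isolated peaks of score 500 or more, as deposited, had another isolated peak within 10 kb, and most of those at 100 to 150 did not. Another isolated strong peak lay within 10 kb of 1045 of the 2999, 34.8% (33.1 to 36.6%), or 18.3% (16.8 to 19.9%) with HCF1 peaks joined over 1 kb. As deposited, the share was alike for the 8804 weaker isolated peaks, of which 35.8% (34.8 to 36.8%) lay within 10 kb of another of their own set. For any autosomal HCF1 peak of score 100 or more the share with another such peak within 10 kb was 55.2%, in a set over 5 times as large as the isolated strong set. The share of grouped peaks was 29.7% (27.5 to 32.0%) at scores of 100 to 150, 39.4% (34.9 to 44.0%) at 200 to 300, 72.6% (61.8 to 81.8%) at 500 to 1000 and 88.2% (72.5 to 96.7%), or 30 of 34, at 1000 or more. Partnered peaks did not show this gradient. Among them the share with another partnered peak of score 100 or more within 10 kb was 51.0% (49.1 to 53.0%) at 100 to 150, 41.8% (39.7 to 43.8%) at 500 to 1000 and 51.0% (48.0 to 54.1%) at 1000 or more. By this count of neighbours from the same set, as deposited, the isolated set was below the partnered set at low score and above it at high score. The intervals were apart in both cases, but neighbours count for each other, so the peaks are not independent. The difference was not tested. The sets differ in size, with 2999 isolated and 12412 partnered peaks, and counted over HCF1 peaks of any kind the 2 sets were alike at 100 to 150: no other HCF1 peak lay within 10 kb of 29.1% of isolated and 27.3% of partnered peaks. With distances measured between centres the isolated shares were 28.6% at 100 to 150 and 88.2% at 1000 or more. A neighbour of an isolated peak had to be without a partner too if it lay within 1 kb, so the rule itself favours groups that are free of partners as a whole.

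The shares depended on how adjoining peaks and overlap were counted. With HCF1 peaks joined over gaps of 1 kb or less before the rule was applied, 46.0% (35.2 to 57.0%) of 87 isolated regions of score 500 or more lay within 10 kb of another, compared with 77.1% (68.5 to 84.3%) of 118 peaks as deposited. For scores of 100 to 150 the joined share was 15.7% (13.8 to 17.7%). Among partnered regions the joined shares were 34.3% (32.6 to 35.9%) and 34.1% (32.0 to 36.3%) for the same score classes. The intervals of isolated and partnered regions of score 500 or more then overlapped. When a partner was required to have its centre within 250 bp of the HCF1 centre, the rule chose 6374 peaks and the difference between score classes was lost, at 44.2% (41.4 to 47.1%) for 500 or more and 43.5% (41.4 to 45.5%) for 100 to 150. Counted on peaks as deposited, 51 of the 118 strongest isolated peaks had another isolated peak of score 500 or more within 10 kb, 43.2% (34.1 to 52.7%). For partnered peaks of that score the share with such a partnered neighbour was 18.5% (17.2 to 19.9%). The number of other HCF1 peaks of any kind within 10 kb had a median of 4 (4 to 5) for the 118, against 1 (1 to 2) for partnered peaks of score 500 or more. At 100 to 150 it was 1 for isolated (1 to 2) and for partnered peaks (1 to 1). These neighbour counts were not repeated with peaks joined, and a broad stretch divided into several peaks would raise them. Of the 118, 10 lay in the largest group, on chromosome 6.

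**Figure D3:**
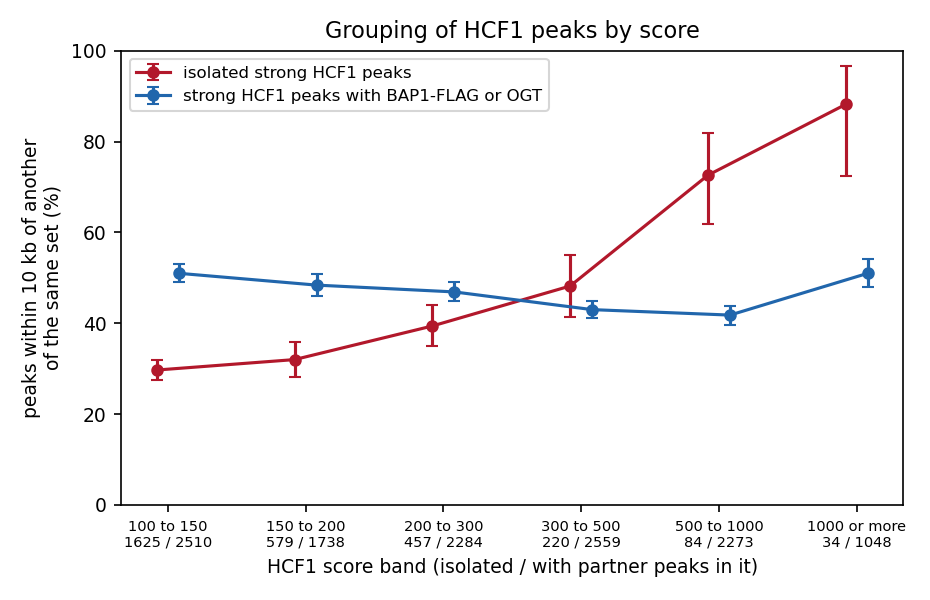
Share of HCF1 peaks with another peak of the same set within 10 kb (vertical axis, percent) by score band (horizontal axis, with the number of isolated and partnered peaks in each band). Red points are isolated strong peaks and blue points partnered ones, with exact 95% intervals; the red points rise from 29.7% to 88.2% while the blue ones stay between 41.8% and 51.0%.

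Joining isolated peaks over gaps of 10 kb or less gave 383 groups of 2 or more that held 1045 peaks, and 1954 single peaks. Grouped peaks had a median score of 159 (152 to 165), against 139 (137 to 142) for single ones. Of the 118 isolated peaks of score 500 or more, 91 were in groups. Neighbouring members of a group were a median of 0.988 kb apart, and 334 of the 662 gaps (50.5%) were 1 kb or shorter. The spans of 349 groups (91.1%) held no partner peak. Only 20 groups had 6 or more members, 142 peaks in all, and 18 of those 20 spans were free of partner peaks. The rule itself favours such spans. Members share no base with a partner peak and lie over 1 kb from partnered HCF1 peaks, and many gaps between members are short. These shares therefore describe the choice, and nothing is read from them.

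The largest group, chr6:52161445-52215939, held 13 isolated peaks in 54.5 kb. HCF1 peaks covered 65.7% of its span, 10 of the 13 scored 500 or more and 5 scored 1000 or more. In order along the chromosome, the 5 were chr6:52161445-52164152 (1452.89), chr6:52181056-52184618 (1943.00), chr6:52189099-52191733 (1464.85), chr6:52194413-52200401 (2575.88) and chr6:52201765-52205044 (2056.60). Between them and beyond lay peaks of intermediate score, with 551.37 at chr6:52166761-52168415, 652.58 at chr6:52175292-52176961 and 679.16 at chr6:52178673-52180330. A pair 129 bp apart followed at chr6:52208623-52210984 (836.64) and chr6:52211114-52213540 (795.65). The weakest 3 members scored 185.81, 147.29 and 133.46. One partner peak fell within the span, a BAP1-FLAG peak of score 80.67 at chr6:52171378-52172306, which overlapped an HCF1 peak of score 612.59 at chr6:52170107-52172107. That HCF1 peak and a peak of 114.74 next to it were therefore not in the isolated set, while the 13 isolated peaks lay 2.44 kb or more from the BAP1-FLAG peak. No OGT peak fell within the span, and the nearest partner peaks outside it were 18.8 kb before and 37.0 kb after.

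The second largest group, chr2:74517426-74553091, differed from the first in having no peak of score 500 or more. Its 10 members scored between 104 and 246.34, with a median width of 780 bp, and covered less of the sequence: all 19 HCF1 peaks in the span made up 31.8% of its 35.7 kb. The highest were chr2:74517426-74518348 (246.34), chr2:74520075-74521136 (240.92) and chr2:74552309-74553091 (217.67). The other 9 HCF1 peaks in the span scored under 100, from 51.20 to 96.70. The nearest partner peaks were 99.5 kb before and 110 kb after. A further 4 isolated peaks lay just before the group, beyond a gap of 10.2 kb, and 1 of these, chr2:74495038-74499094, scored 1276.65 over 4057 bp. With them, 14 isolated peaks lay in 59.2 kb of chromosome 2.

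The third place was shared by 2 groups of 9. The group at chr2:71365079-71385649 spanned 20.6 kb, of which HCF1 peaks covered 79.6%, and held a pair of peaks above 1000, chr2:71366912-71370470 (1559.96, 3559 bp) and chr2:71379655-71384574 (1788.36, 4920 bp). The other 7 members scored from 125 to 266.20 and lay beside or between that pair, the closest at a distance of 15 bp. Partner peaks were 73.3 kb before and 22.7 kb after this group. At chr5:140014826-140032131 the 9 members spanned 17.3 kb and were of middling score, the highest being 463.70 (chr5:140014826-140016924), 455.29 (chr5:140019929-140021571) and 308.74 (chr5:140025275-140026572). The nearest partner peaks were 53.6 kb before and 110 kb after.

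**Figure D4:**
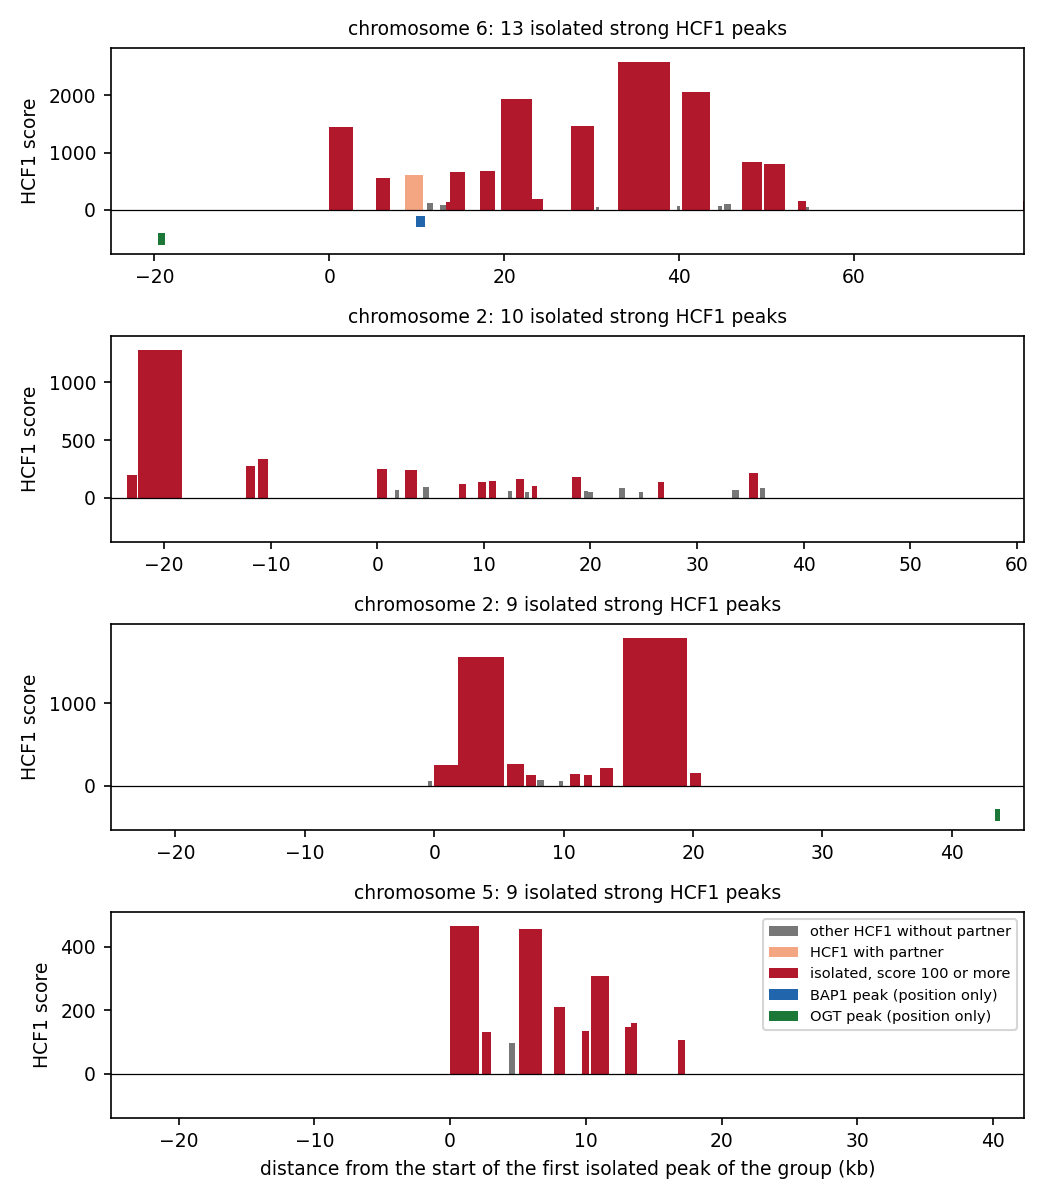
HCF1 score (vertical axis) of each peak against its distance from the start of the first isolated peak of its group (horizontal axis, kb), for the 4 largest groups with 25 kb on both sides; bar width is peak width, with a minimum for visibility. Red bars are isolated strong peaks, grey bars other HCF1 peaks without a partner, orange bars partnered HCF1 peaks; blue and green marks below the axis show BAP1-FLAG and OGT peaks by position only. The chromosome 6 group holds 13 red bars and 1 blue mark, and the other 3 spans hold no blue or green mark.

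Several smaller groups were as free of partners. The group of 8 at chr14:122863379-122881430 had a highest score of 1485.85 and partner peaks no nearer than 51.4 kb. The 6 at chr10:50612526-50623978 had a median score of 517, of which 2 reached 1000, and HCF1 covered 87.9% of the 11.5 kb; the nearest partner was 300 kb away. At chr3:128902977-128922478 the 6 members had a median of 459 and partners at 119 kb or more. At chr13:78333282-78349198 the 6 members were weak, with a highest score of 155.42, yet the nearest partner was 485 kb away. A different setting was seen at chr16:35831824-35865771, where 7 members with scores of 107 to 343.84 lay among 2 OGT peaks of scores 50.91 and 63.85, neither on an isolated peak. The groups at chr1:158582088-158599915 and chr1:175650926-175663565, with 7 members each, had partner peaks 2.74 and 3.26 kb after their ends.

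On a larger scale the isolated peaks were spread over 1127 windows of 1 Mb, with a median of 2 per window. There were 16 windows with 10 or more. The window with the most, chr19:11000001-12000000, held 27, with a median score of 153 and a highest of 498.00. It was not a region without partners, since it also held 17 BAP1-FLAG peaks, 28 OGT peaks and 32 partnered HCF1 peaks among its 103 HCF1 peaks, and its largest group had 4 members. The next, chr1:175000001-176000000, held 22 with a median of 197, beside 2 BAP1-FLAG and 12 OGT peaks. The third, with 20, was the window of the chromosome 6 group and had a median score of 443. No isolated peak reached 500 in the first 2 windows, while 10 did in the third. In 37 windows there were isolated peaks (68 in all) and no partner peak of any score. The one with the most was chr13:78000001-79000000, with 7 isolated peaks among 15 HCF1 peaks, followed by chr3:128000001-129000000, with 6 among 12.

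The share of strong HCF1 peaks that were isolated varied between chromosomes. It was highest on chromosome 13, at 24.7% (21.6 to 28.1%, 172 of 695), and lowest on chromosome 8, at 13.3% (11.0 to 15.8%, 110 of 828). The interval lay above the pooled 18.6% on 4 autosomes (2, 3, 13 and 19), below it on 4 (7, 8, 11 and 17) and around it on 11. These shares describe the choice and were not tested. Peaks close together are not independent: 27 of the 159 isolated peaks of chromosome 19 lay in 1 window of 1 Mb. Across the 19 autosomes the share went with that of weaker isolated peaks among HCF1 peaks under 100 (rho 0.64), which is a description, since both come from the same 3 libraries and both depend on how densely partner peaks lie. Isolated peaks of score 500 or more numbered 16 of 295 on chromosome 2, 15 of 173 on chromosome 6 and 12 of 184 on chromosome 3. Of the 15 on chromosome 6, 10 lay in the single group of 13 described above. Chromosomes 8 and 18 had 1 each, of 110 and 67. The 110 isolated peaks of chromosome 17 had a highest score of 468.

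**Figure D5:**
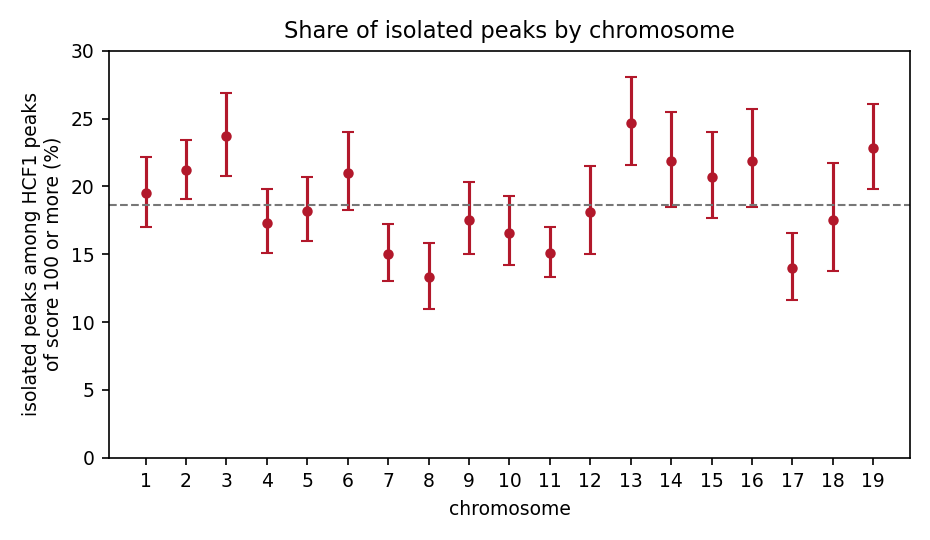
Isolated peaks as a percentage of HCF1 peaks of score 100 or more (vertical axis) on each autosome (horizontal axis), with exact 95% intervals; the dashed line is the pooled share of 18.6%. Chromosome 13 is highest at 24.7% and chromosome 8 lowest at 13.3%.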

How the data were processed

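The authors deposited 1 list of peaks per ChIP library, with positions and 1 score per peak. GSNAP, MACS 1.4 and build mm9 are named in the submitters' processing notes. Libraries were size-selected, amplified by PCR and sequenced on a Genome Analyzer II, per the labels' protocols. How the tools were set and what the score measures is not given in the sources used. The lowest deposited scores were 50.01 (BAP1-FLAG), 50.0 (HCF1) and 50.0 (OGT), and scores were compared only within a list. Starts were read as counted from 0 and are printed from 1.

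Overlap meant at least 1 shared base, and distances were measured edge to edge. Medians have exact order-statistic intervals and shares have Clopper-Pearson intervals, both at 95%, computed with Python 3.11.15, numpy 2.4.6, pandas 2.3.3 and scipy 1.17.1. The code for the intervals of medians was tested on simulated data, and that for the intervals of shares was not. The peaks, the lists compared and the score classes were chosen with earlier results of these data known. Peaks were named by a rule: the 15 highest scores, the 5 widest, the 5 farthest from and 5 nearest to a partner peak, the largest groups and the peaks next to each limit. The third largest group was tied, so 4 are given. Smaller groups and windows were picked after their values were seen. The gene and promoter tables supplied are for GRCm38, so no gene or sequence was assigned to mm9 positions, and the planned results that need them were not run.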

Additional observations from a re-analysis of the deposited data

Results flagged for a closer look

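The peaks described above were limited to autosomes, and HCF1 peaks elsewhere that met every other part of the rule were counted separately because no comparison used them. There were 59 on the X chromosome, out of 198 HCF1 peaks of score 100 or more there, 29.8% (23.5 to 36.7%), against 18.6% on the autosomes. Their median score was 144 and the highest 405.36, the median width was 686 bp, and the nearest partner peak lay at a median of 50.6 kb (22.8 to 88.7 kb). The difference from the autosomes was not tested. On random or unplaced sequence 8 of 30 such peaks met the rule.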

How the results depend on the processing

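Of 54 values under 9 alternatives, 19 stayed within the reported interval (for the number of peaks, within 1.5 times) and 35 did not, as most alternatives change which peaks are chosen. The number of isolated peaks was 11803 with a score of at least 50, 795 with at least 200, 5854 when partner peaks under 100 were ignored and 6374 with centres within 250 bp as the overlap rule. In the same order, the median width was 524, 1298, 953 and 1147 bp, the median distance to a partner 11.6, 18.5, 25.3 and 0.246 kb, the share over 10 kb from a partner 53.2, 63.4, 70.3 and 26.3%, the share within 10 kb of another isolated peak 47.3, 31.7, 38.5 and 43.6%, and the median distance to another HCF1 peak 4.26, 0.960, 2.44 and 1.57 kb. With no minimum distance to partnered peaks, the partner distance was 7.87 kb, the share over 10 kb 45.5%, the grouped share 37.3% and the HCF1 distance 1.08 kb. With a minimum of 5 kb, these were 23.3 kb, 74.3%, within the interval, and 4.11 kb. Extending partner peaks by 500 bp gave 57.9% over 10 kb. Joining HCF1 peaks over 1 kb gave a width of 1031 bp, a grouped share of 18.3% and an HCF1 distance of 6.02 kb. Leaving out HCF1 peaks over 5 kb kept all 6 results within their intervals. After the data were seen, the grouped share was repeated for scores of 500 or more and of 100 to 150: the first was the higher under each of the 8 alternatives that gave both, but at 44.2% against 43.5% with centres within 250 bp the intervals overlapped. It was 54.3% against 36.1% when partner peaks under 100 were ignored. Shares by chromosome, windows and widths by score had no alternative. The depth of the libraries is unknown, which limits every statement that a partner is missing. No paired analysis was possible because no protein was sampled more than 1 time.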
